A study of Mus musculus with 16 samples.

Results

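The effect of ovalbumin (OVA) on mouse airway epithelium was measured as 1 effect over both genotypes of the study. OVA is a chicken egg protein that is widely used to provoke allergic airway inflammation. All 16 of the 16 arrays entered the comparison, the 8 titled OVA against the 8 titled saline, with genotype as a covariate. The arrays were 4 of ko_OVA, 4 of wt_OVA, 4 of ko_saline and 4 of wt_saline. The ko mice carried a knockout of Itgb6, which encodes the beta6 subunit of an integrin that epithelial cells use to activate latent TGF-beta, and the wt mice were wild type, all on the FvB strain. Mice were 6 to 8 weeks old when sensitization began. OVA mice received 20 ug of the protein by intraperitoneal injection on days 1, 4 and 7, then 10 ug into the nose each week for 9 weeks, and saline mice received saline at both stages. Epithelium was collected with a brush 24 h after the last dose, and RNA was hybridized to one-colour arrays. The labels do not say how many mice an array stands for, so the p-values below measure the spread between arrays, and 8 arrays a side limit the precision.

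The lining of the conducting airways holds ciliated cells, which move mucus, club cells, which secrete protective proteins and break down foreign compounds, and mucous (goblet) cells, which make gel-forming mucins. Allergen exposure acts through interleukin 4 and interleukin 13 on the epithelium and is known for turning club cells towards a mucous state. A mucous cell has to translocate large proteins into the endoplasmic reticulum (ER), fold them, attach N-linked sugars there and carry them to the Golgi, where enzymes build the O-linked sugars of mucins. The lists of genes below follow that route. In RNA of whole brushings, fewer cells of a type and less RNA per cell cannot be told apart.

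Values are log2 signals relative to the 75th percentile of the array, raised to a common floor of -3.32, and differences are OVA minus saline on that log2 scale with their standard error (SE). A gene was called at an adjusted p under 0.05 (limma, Benjamini-Hochberg adjustment over all 18566 genes and unnamed transcripts tested, 12850 of them with a symbol). The 75th percentile of the processed signal lay between 78.03 and 630.7 intensity units on OVA arrays and between 128.7 and 793.4 on saline arrays. Between 43.27% and 74.46% of probes were well above background on OVA arrays and between 47.76% and 62.7% on saline arrays. The upper end came from wt_OVA 1 (74.46%) and wt_OVA 2 (72.7%), and the next highest array was ko_saline 3 (62.7%). Pearson's r between arrays over genes ranged from 0.954 to 0.9899. The arrays lay on 4 slides that each held both agents, though unevenly. Slide 3 had no ko_saline array and slide 4 no wt_OVA array, so differences within slide 3 came from wt only and within slide 4 from ko only. The fourth position of every slide held an OVA array. Itgb6 had values from -1.71 to -0.73 on ko arrays and from -0.93 to -0.39 on wt arrays. These ranges overlap, and the files do not say whether the probe lies in the disrupted part, so Itgb6 does not check single labels. Its difference with OVA was -0.07 ± 0.12 (SE, adjusted p = 0.794). Foxj1, the master regulator of motile cilia, and Scgb1a1, the main club cell protein, were bright on all arrays that measured them (at least 5.75 and 8.56 with OVA and at least 5.26 and 8.41 with saline). Spots marked as outliers by the scanner software were left out, and where that removed an array the number used is given.

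Pooling the genotypes gave 742 genes higher with OVA (4.00% of the genes tested) and 539 lower (2.90%), 6.90% in all. On the same arrays, the ko comparison alone called 89 genes higher (0.479%) and 50 lower (0.269%), and the wt comparison alone 289 higher (1.56%) and 196 lower (1.06%). The median SE of a pooled difference was 0.119, against 0.1684 in ko and 0.1685 in wt. The largest unadjusted p that was still called was 0.00345 in the pooled fit, 0.000371 in ko and 0.0013 in wt. Of the pooled calls, 107 genes were at least 2-fold higher and 58 at least 2-fold lower. The median difference over all genes was 0.0123, with 53.03% of genes above 0. Of the wt calls 53 were not called in the pooled fit, and of the ko calls 4. No gene was called with opposite signs in the genotypes. The test of the interaction, which asks whether the OVA effect differed between ko and wt, called 0 genes in limma. Its smallest adjusted p was 0.1548, and 569 genes (3.06%) had an unadjusted p under 0.05. That miss does not show that the genotypes responded alike.

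With OVA, 465 genes (2.50% of those tested, 363 of them with a symbol) were called higher only after pooling, that is in neither genotype alone and with the same sign in both. Another 359 (1.93%, 270 with a symbol) were called lower only after pooling. These genes are 62.67% of all higher calls and 66.6% of all lower calls. Their changes were small. The median difference was 0.45 for the higher genes (range 0.20 to 3.25) and 0.47 in size for the lower ones (0.22 to 2.31), and 15 and 21 of them were at least 2-fold. Median differences in ko and wt lay close to each other, at 0.41 in ko and 0.50 in wt for the higher genes and at -0.44 in ko and -0.49 in wt for the lower ones. An unadjusted p under 0.05 was reached in both genotypes by 331 of the higher genes and 230 of the lower ones, and in 1 genotype by the other 134 and 129. Choosing these genes on the same arrays, with the same sign in both genotypes, largely fixes these medians and p-values. They do not show that the genotypes agree. Within the slides, 434 of the higher genes and 335 of the lower ones had 1 sign on all 4, as did 25.51% of all genes, which the choice of these genes on the same arrays largely fixes. At the threshold itself stand Frmpd1, the last gene called in the pooled fit (0.70, adjusted p = 0.05 after rounding), and Ubxn11, the first not called (0.46, adjusted p = 0.05024). Atp10a was the gene called only after pooling that came closest to a call in 1 genotype (adjusted p = 0.05021 in wt). Other settings changed these counts. With arrays scaled on their median, 112 genes were higher and 236 lower in the pooled fit (32.18% of calls higher, against 57.92%), and the median over all genes then lay at -0.103. Of the 465 higher and 359 lower genes called only after pooling, 14 and 101 were still called with median scaling. With normexp background correction 66 and 53 of them were. Without wt_OVA 3, 486 genes were higher and 320 lower, and without wt_saline 2, 344 were lower. With the mean of the mast cell list as a covariate, 6 of the 465 and 6 of the 359 genes were still called. That list itself rose with OVA, so the covariate carries part of the difference between the agents.

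**Figure D1:**
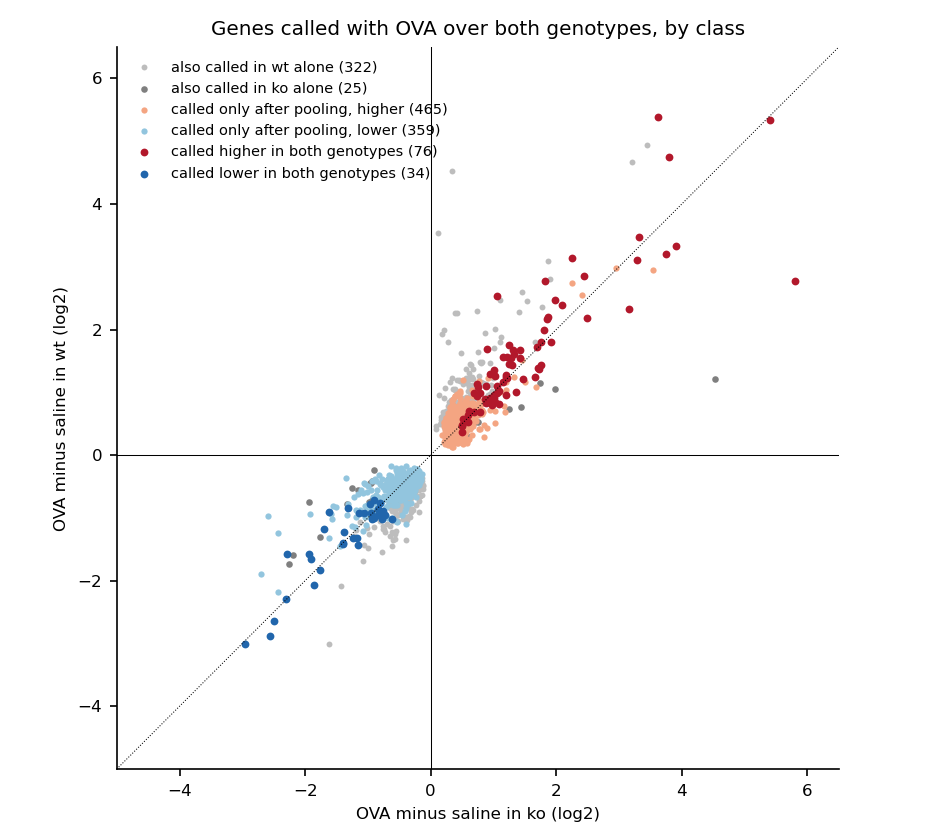
OVA minus saline in ko (x axis, log2) against the same in wt (y axis, log2) for the 1281 genes called over both genotypes, coloured by class, with the number of genes of each class in the legend and a dotted line of equal change. Most of the 465 and 359 genes called only after pooling lie close to the origin, and both genotypes were required to have the same sign. Of them, 15 and 21 changed at least 2-fold, up to 3.25 for Tff1.

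The 12 higher genes with the smallest p among those called only after pooling were led by Alox12e, an epidermal-type 12-lipoxygenase that oxygenates arachidonic acid. Alox12e had 6.41, 6.97 and 7.54 on OVA arrays (lowest, median and highest of 8, as in all such triplets below) against 5.63, 6.04 and 6.62 on saline arrays, a difference of 0.89 ± 0.15 (SE, adjusted p = 0.00202), with 0.97 in ko (adjusted p = 0.0553) and 0.82 in wt (adjusted p = 0.0595). The groups overlapped, and neither genotype passed alone. Fcamr, a receptor for IgA and IgM, had 0.22, 1.12 and 1.57 with OVA against -1.09, -0.36 and 0.84 with saline (1.34 ± 0.23, adjusted p = 0.00265). Serpinb12, an intracellular serine protease inhibitor, had -0.10, 1.11 and 1.70 with OVA against -0.87, -0.31 and 0.49 with saline (1.29 ± 0.22, adjusted p = 0.0027). Timp4, an inhibitor of matrix metalloproteinases, had 2.18, 2.74 and 3.21 with OVA against 0.74, 1.66 and 2.28 with saline (1.12 ± 0.19, adjusted p = 0.00292). In these 4 genes the median of the OVA arrays lay above the highest saline array, while the lowest OVA arrays lay within the saline range. For Serpinb12 a dimmer probe gave 0.15. Alox12e and Timp4 lost their call with median scaling.

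Tff1, a trefoil peptide secreted with gastric and airway mucus, had the largest change among the genes called only after pooling. It had -0.91, 0.91 and 3.22 on OVA arrays against -3.32, -2.23 and -0.26 on saline arrays, a difference of 3.25 ± 0.57 (adjusted p = 0.00303), with 3.54 in ko (adjusted p = 0.0725) and 2.95 in wt (adjusted p = 0.076). The values spread widely within both agents, and within slides the difference ran from 0.41 to 5.45. The trefoil peptide gene Tff2 had 4.91, 5.83 and 6.67 against 3.57, 4.27 and 5.34 (1.49 ± 0.29, adjusted p = 0.00642), and Muc5b, a gel-forming mucin of resting airways, had 5.03, 6.35 and 6.52 against 4.49, 5.07 and 5.77 (0.98 ± 0.24, adjusted p = 0.0245). These are the 3 of 17 higher mucous cell genes that needed pooling. The other 14 were also called in at least 1 genotype, among them Clca1, Muc5ac and the transcription factors Foxa3, Spdef and Creb3l4, and all 20 measured members had differences above 0 (median 1.53).

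The other 7 of the 12 had smaller changes, and all 7 lost their call with median scaling. C2cd3, which is needed to build the distal end of centrioles, had -0.22, -0.13 and 0.16 with OVA against -0.64, -0.49 and -0.24 with saline (0.37 ± 0.06, adjusted p = 0.00292), so all 8 OVA arrays lay above all 8 saline arrays. A dimmer C2cd3 probe gave 0.08, and the call was lost with the mean of the probes. No overlap was also seen for Selenok, a selenoprotein of the ER membrane, with 5.73, 5.84 and 6.02 against 5.16, 5.43 and 5.68 (0.43 ± 0.08, adjusted p = 0.00378). Over all genes, 143 (0.770%) lay wholly above with OVA and 71 (0.382%) wholly below. Adam8, a metalloprotease known from allergic lungs, was among the brightest, with 7.09, 7.39 and 7.74 against 6.60, 6.79 and 7.20 (0.57 ± 0.10, adjusted p = 0.00397). Ly6g6e (0.58 ± 0.10), Hgfac, the activator protease of hepatocyte growth factor (0.78 ± 0.14), Qrsl1, a subunit of the mitochondrial glutamyl-tRNA amidotransferase (0.43 ± 0.08), and Sdcbp2, a PDZ adaptor also called syntenin 2 (0.41 ± 0.08), completed the 12, with adjusted p from 0.00208 to 0.00418.

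**Figure D2:**
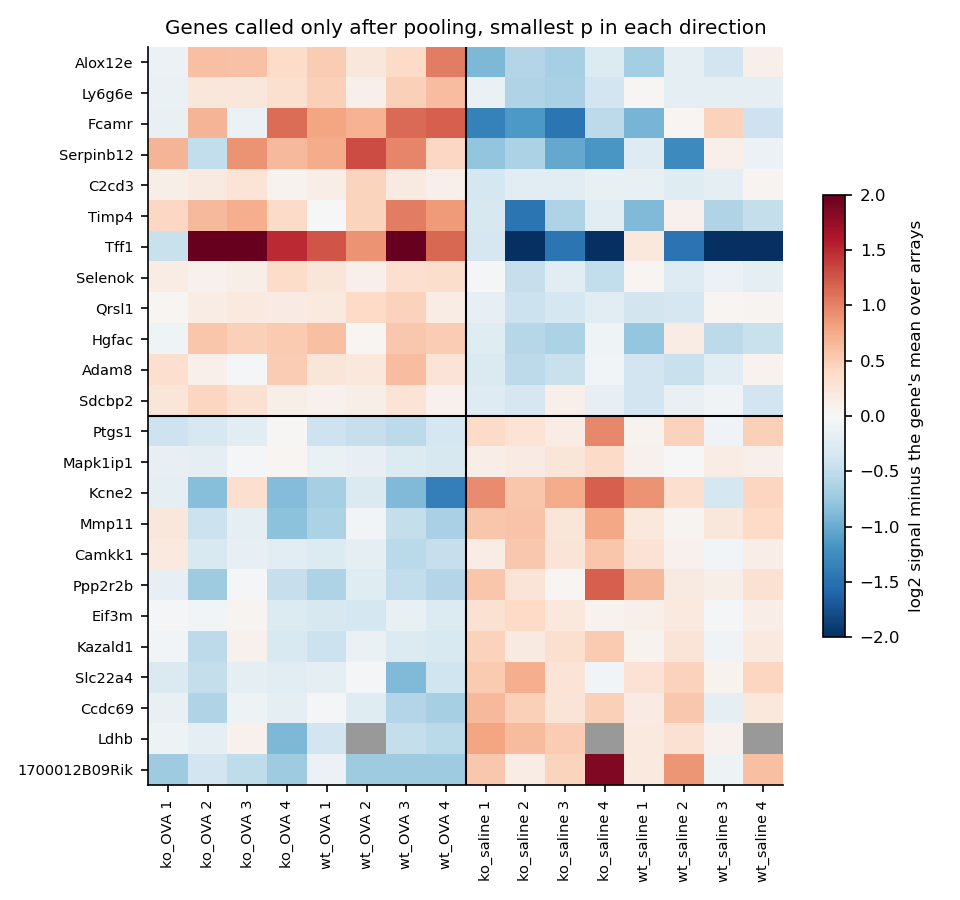
Log2 signal minus the mean of the gene over arrays (colour, scale cut at the ends shown) for the 12 higher and 12 lower genes with the smallest p among those called only after pooling, in rows. The 8 OVA arrays are left of the line and the 8 saline arrays right of it, and grey cells have no value. Most cells of a row differ in sign across the line, while single arrays of either agent cross over, as ko_OVA 1 does for Tff1 and Fcamr.

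The secretory route held many genes called only after pooling, in shares of the higher calls (50% to 69.23% by list) near the 62.67% over all genes. Of 51 measured genes of translocation into the ER and export to the Golgi, 13 rose (25.49%, against 4.00% of all genes), 0 fell, and 9 of the 13 rose only after pooling. The median difference of the list was 0.18. Sec11c, a catalytic subunit of signal peptidase, which cuts the signal peptide off proteins entering the ER, had 1.60, 1.91 and 2.19 with OVA against 1.16, 1.26 and 1.60 with saline (0.62 ± 0.09, adjusted p = 0.000606). Spcs2, another signal peptidase subunit, had 4.96, 5.13 and 5.27 against 4.50, 4.73 and 4.82 (0.42 ± 0.07, adjusted p = 0.00208, on 8 OVA and 7 saline arrays). For both, every OVA array lay above the saline arrays. All 4 genes of the translocon-associated protein complex, which helps chains into the channel, had differences above 0, and 3 were called only after pooling: Ssr3 with 3.72, 4.00 and 4.21 against 3.13, 3.37 and 3.88 (0.54 ± 0.10, adjusted p = 0.00498), Ssr4 (0.31 ± 0.09, adjusted p = 0.043) and Ssr2 (0.29 ± 0.08, adjusted p = 0.0359). Ssr1 had 0.17 (adjusted p = 0.222). The channel subunits themselves did not pass, with 0.15 for Sec61a1 (adjusted p = 0.374), 0.32 for Sec61b (adjusted p = 0.239) and 0.26 for Sec61g (adjusted p = 0.402).

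Further along the route, Sec24d, a cargo-binding subunit of the COPII coat that buds vesicles from the ER, had 0.59, 0.82 and 1.06 with OVA against 0.05, 0.36 and 0.58 with saline (0.49 ± 0.07, adjusted p = 0.000922). Uso1, a tether of vesicles at the Golgi, had 1.03, 1.18 and 1.30 against 0.49, 0.74 and 0.98 (0.43 ± 0.07, adjusted p = 0.00219). Neither gene had an OVA array below a saline array. Kdelr3, a receptor that returns escaped ER proteins from the Golgi, was called only after pooling and also lay wholly above, with 0.72, 1.00 and 1.44 against -0.09, 0.51 and 0.62 (0.66 ± 0.12, adjusted p = 0.00525). The COPII subunit Sec23b (0.42 ± 0.10), the cargo receptors Lman2 (0.46 ± 0.12) and Mcfd2 (0.30 ± 0.08), Arfgap3 (0.26 ± 0.07) and the COPI coat subunit Copa (0.24 ± 0.07), which act in traffic between ER and Golgi, followed with adjusted p from 0.0168 to 0.0499. With arrays scaled on their median, 0 of the 13 were called, and the list's median was 0.04, against -0.103 for all genes.

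N-glycosylation came next. Of 28 measured genes, 9 rose (32.14%), 0 fell, and 6 of the 9 rose only after pooling, with a list median of 0.20. Dpagt1, which adds the first sugar to the lipid carrier, had 2.78, 2.96 and 3.15 with OVA against 2.47, 2.62 and 2.68 with saline (0.36 ± 0.06, adjusted p = 0.00177), with no overlap. Ddost, a subunit of the oligosaccharyltransferase that moves the finished glycan to the protein, had 4.95, 5.49 and 5.77 against 4.56, 4.89 and 5.12 (0.56 ± 0.10, adjusted p = 0.00433). Tusc3, another subunit of that enzyme, had 2.59, 3.05 and 3.31 against 2.42, 2.65 and 2.70 (0.42 ± 0.08, adjusted p = 0.00671). Ddost and Tusc3 reached no call in either genotype (adjusted p = 0.109 and 0.239 in ko, 0.081 and 0.0532 in wt). Gfpt1, the rate-limiting enzyme of the hexosamine pathway that supplies amino sugars, was called in wt too (0.56 ± 0.12, adjusted p = 0.00925 pooled). Among the rest called only after pooling were Gmppb (0.45), Uap1 (0.33), Alg12 (0.33) and Alg9 (0.31), which make sugar nucleotides or extend the glycan. With median scaling 0 of the 9 were called. A dimmer probe of Gfpt1 gave 0.16.

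Enzymes that build mucin sugars gave a larger share. Of 24 measured glycosyltransferases and sulfotransferases, 12 rose (50%), 0 fell, and 7 of the 12 rose only after pooling, with a median of 0.39. Galnt6, which starts O-glycans by adding N-acetylgalactosamine, was called in both genotypes, with 2.81, 3.39 and 3.83 with OVA against 1.57, 2.14 and 2.35 with saline (1.36 ± 0.15, adjusted p = 6.4e-05). Its relatives Galnt4 (0.64 ± 0.12), Galnt7 (0.50 ± 0.13) and Galnt3 (0.39 ± 0.10) needed pooling, with adjusted p of 0.00462, 0.0317 and 0.0357. St3gal4, a sialyltransferase, lay wholly above with OVA, at 1.59, 1.87 and 2.21 against 0.73, 1.21 and 1.50 (0.68 ± 0.12, adjusted p = 0.00422). Gcnt1, which branches the core of the glycan (0.74 ± 0.14), B4galt4, a galactosyltransferase (0.54 ± 0.10), and St6galnac2, a sialyltransferase (0.77 ± 0.20), were also called only after pooling. B4galt1 rose by 0.43 ± 0.08 (adjusted p = 0.00397), but 1 of its 2 other probes gave -0.06. Galnt12 (0.55 ± 0.07) and B3gnt3 (0.74 ± 0.11) were called in wt too. With median scaling 3 genes of this list were called.

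Protein folding in the ER had the highest share of calls among the lists after the mucous cell genes. Of 26 measured genes of ER stress and folding, 18 rose (69.23%), 0 fell, and 9 of the 18 rose only after pooling, with a median of 0.64. With median scaling 6 were called higher. The sequences of their promoters are shown because the published ER stress element, CCAAT, 9 bases of any kind and CCACG, is bound by the transcription factors Atf6 and NF-Y when unfolded proteins collect. These letters were searched on both strands in the 250 bases before the start of each gene (RefSeq, GRCm38.p6). They stand in 35 of 27025 promoters (0.1295%) and in 9 of the 25 promoters matched to the list (36%). Windows of 59 bases follow for Hspa5 and Creld2, called in both genotypes, and for the 4 list genes with the element that were called only after pooling, written 5′ to 3′ along the gene's strand, with the element in capitals. An element that runs the other way reads CGTGG first.

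Hspa5, chr2:34772005-34772063, plus strand: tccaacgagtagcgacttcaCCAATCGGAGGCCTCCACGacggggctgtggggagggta
Creld2, chr15:88819500-88819558, plus strand: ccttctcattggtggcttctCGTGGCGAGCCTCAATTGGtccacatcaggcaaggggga
Hsp90b1, chr10:86705618-86705676, minus strand: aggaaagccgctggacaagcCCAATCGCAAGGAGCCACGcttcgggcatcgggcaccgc
Hsp90b1, chr10:86705513-86705571, minus strand: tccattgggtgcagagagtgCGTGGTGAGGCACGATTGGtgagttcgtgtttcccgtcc
Calr, chr8:84847055-84847113, minus strand: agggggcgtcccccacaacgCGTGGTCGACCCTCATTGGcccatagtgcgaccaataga
Syvn1, chr19:6046512-6046570, plus strand: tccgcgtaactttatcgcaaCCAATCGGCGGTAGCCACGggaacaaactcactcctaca
Canx, chr11:50325780-50325838, minus strand: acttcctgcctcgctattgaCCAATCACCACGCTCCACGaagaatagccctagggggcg

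All 9 measured ER list genes with the element rose, with a median difference of 0.81, and 6 of the 14 with a promoter that lacks these letters rose, with a median of 0.40. Over all genes tested that have a promoter, 20 hold the element and 11 of these rose (55%), 0 fell and 19 had a difference above 0, against 439 of the 10242 without it (4.286%). The ER list, chosen with earlier results known, supplies 9 of these 11, so this share is not separate from the list. Beside the list, only Ero1b, an oxidase that supplies disulfide bonds (0.66 ± 0.11, adjusted p = 0.00247), and Alg12 (0.33) were called among the holders. The Alg12 element is the one printed for Creld2, whose start lies on the other side. The remaining holders were not called, with differences from -0.17 for Adcy3 to 0.46 for Xlr3c. A match is a description of the letters and not a site of binding. The shorter core TGACGTG stands in 1.846% of promoters. Of the 271 tested genes that hold it 5.535% rose, against 4.354% of the others.

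Hspa5, the main chaperone of the ER lumen, also named BiP, had 6.94, 7.30 and 7.63 on 6 OVA arrays against 6.06, 6.35 and 6.64 on saline arrays (0.94 ± 0.11, adjusted p = 0.000219), with no overlap. Creld2, a secreted ER stress protein, had 7.33, 7.49 and 7.73 on 5 OVA arrays against 6.08, 6.26 and 6.43 on 6 saline arrays (1.22 ± 0.10, adjusted p = 9.41e-05). Both were called in each genotype. The lectin chaperones needed pooling. Calr had 4.93, 5.67 and 6.09 with OVA against 4.51, 4.95 and 5.42 with saline (0.70 ± 0.14, adjusted p = 0.00821), and the groups overlapped. Canx, its membrane-bound relative, had 5.34, 5.50 and 5.72 on 6 OVA arrays against 5.06, 5.16 and 5.26 on 5 saline arrays (0.35 ± 0.09, adjusted p = 0.0441). Hsp90b1, the ER member of the Hsp90 family, had 7.05, 7.91 and 8.34 against 6.51, 6.92 and 7.43 (0.81 ± 0.18, adjusted p = 0.0153). Its values in ko and wt were 0.81 and 0.82, and neither passed alone (adjusted p = 0.288 and 0.118).

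Most list genes of the removal of misfolded proteins rose. Derl3 (2.07 ± 0.29, adjusted p = 0.000634) and Edem1 (0.75 ± 0.14, adjusted p = 0.0042) were called in wt too. Syvn1, a ubiquitin ligase of the ER membrane, had 5.08, 5.41 and 5.79 with OVA against 4.55, 4.76 and 5.19 with saline (0.61 ± 0.12, adjusted p = 0.00695), and its partner Sel1l had 1.67, 2.06 and 2.48 against 1.15, 1.38 and 1.80 (0.66 ± 0.14, adjusted p = 0.0103). Both were called only after pooling, while Herpud1, which acts in the same removal, did not pass (0.10, adjusted p = 0.66). The pooled-only calls also took in the sensor Atf6 (0.45 ± 0.09, adjusted p = 0.007) and the transcription factor Xbp1 (0.41 ± 0.11, adjusted p = 0.0341), which carry the signal of unfolded protein to the nucleus, and the chaperone Hyou1 (0.77 ± 0.15, adjusted p = 0.011). The genes of the list that stand under the translation-dependent branch did not pass, and they were set apart after their values were seen. Their differences were -0.07 for Atf4 (adjusted p = 0.829), -0.07 for Ddit3 (adjusted p = 0.834), 0.40 for Trib3 (adjusted p = 0.599), 0.34 for Chac1 (adjusted p = 0.632) and 0.13 for Asns (adjusted p = 0.71). The SE of Trib3 and Chac1 was 0.35 and 0.34, so a difference of the size of that of Calr would not have been called for them. Non-calls were not confined to that branch. Beside Herpud1, Ern1 (-0.03, adjusted p = 0.959) and Dnajb9 (0.40, adjusted p = 0.195) did not pass either.

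**Figure D3:**
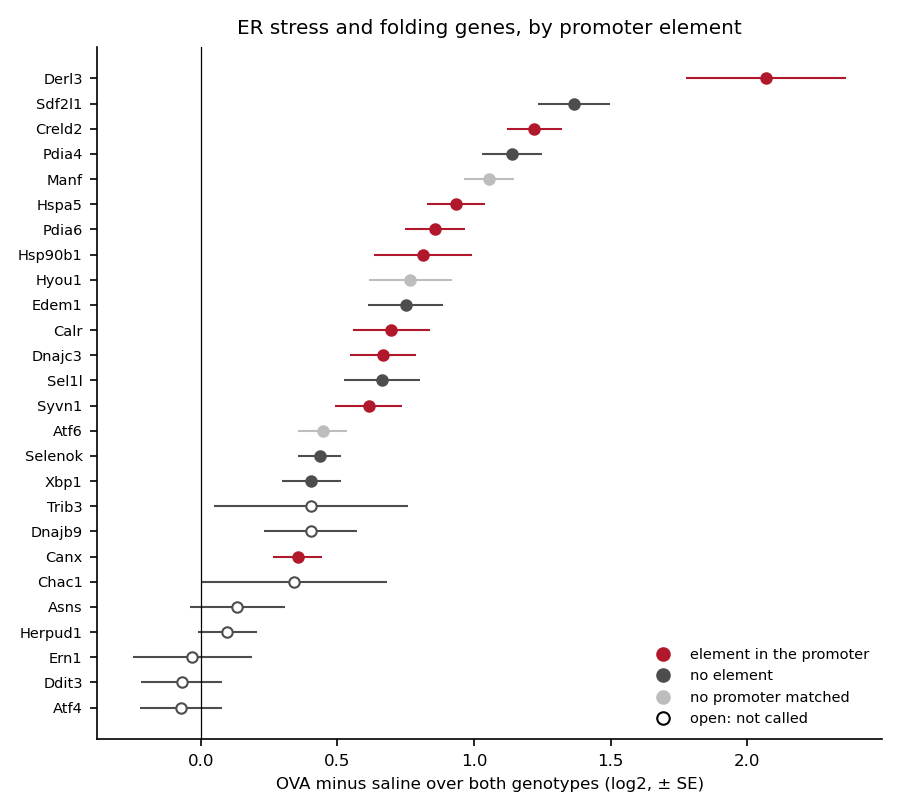
OVA minus saline over both genotypes (x axis, log2, bars are the SE) for the 26 measured genes of ER stress and folding, in order of the difference, from 8 OVA and 8 saline arrays. Red points have the ER stress element in the promoter, dark points do not, pale points had no promoter matched, and open points were not called. All 9 red points are called, from 2.07 for Derl3 to 0.35 for Canx.

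Pooled calls also reached cholesterol synthesis and cilia. All 17 measured genes of cholesterol synthesis had differences above 0 (median 0.38). Of these, 7 rose (41.18%), 4 of them only after pooling. Fdps, which makes farnesyl pyrophosphate, was called in both genotypes, with 1.74, 2.25 and 2.68 with OVA against 1.07, 1.39 and 1.46 with saline (0.89 ± 0.11, adjusted p = 0.000213). Cyp51, a sterol demethylase, was called only after pooling, with -2.08, -1.37 and -0.93 against -2.56, -2.20 and -1.91 (0.84 ± 0.16, adjusted p = 0.00462). The feedback regulator Insig1 (0.38 ± 0.10, adjusted p = 0.0413) and the transcription factor Srebf2 (0.36 ± 0.10, adjusted p = 0.042) also needed pooling, and Sqle and Msmo1 were called in wt too. Of 17 measured ciliated cell genes, 7 rose (41.18%) and 0 fell (median 0.32), and 4 rose only after pooling. The dynein heavy chain gene Dnah5 had 4.21, 4.45 and 4.68 on 6 OVA arrays against 3.56, 3.82 and 4.08 on 6 saline arrays (0.64 ± 0.11, adjusted p = 0.00722), wholly above. Tekt1, a protein of ciliary microtubules (0.37 ± 0.08, adjusted p = 0.015), Foxj1 (0.39 ± 0.09, adjusted p = 0.0253) and Hydin, of the central pair (0.46 ± 0.11, adjusted p = 0.0249), followed. Under median scaling 1 cholesterol gene and 0 ciliated cell genes were called higher.

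**Figure D4:**
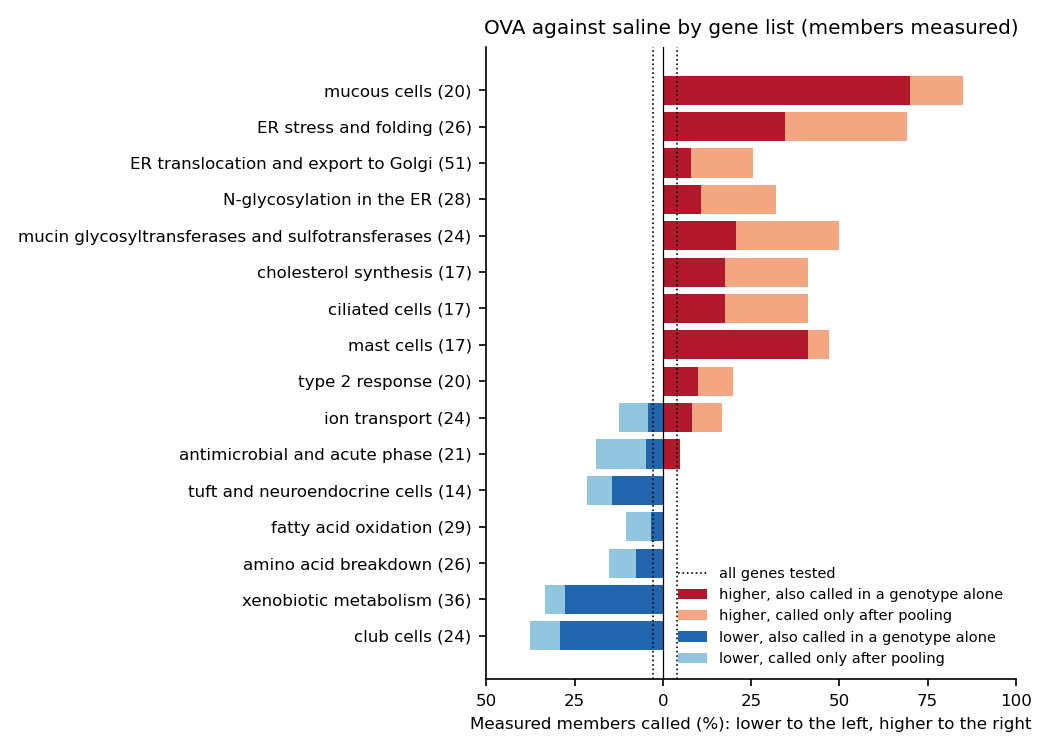
Share of the measured members of each list (x axis, %, number measured in brackets) called higher with OVA, to the right, or lower, to the left. Dark bars are genes also called in a genotype alone, pale bars genes called only after pooling, and dotted lines mark 4.00% higher and 2.90% lower over all genes tested. Pale bars are 69.23%, 66.67% and 58.33% of the higher calls for ER export, N-glycosylation and mucin enzymes, against 62.67% over all genes, and 12.5% for mast cells.

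Among the 12 lower genes with the smallest p that were called only after pooling was Ptgs1, the constitutive cyclooxygenase. Ptgs1 had 1.35, 1.50 and 1.89 on OVA arrays against 1.80, 2.21 and 2.84 on saline arrays, a difference of -0.68 ± 0.12 (adjusted p = 0.00275), with -0.68 in ko (adjusted p = 0.0991) and -0.67 in wt (adjusted p = 0.0531). Kcne2, a beta subunit of potassium channels, had -3.31, -2.69 and -1.59 with OVA against -2.28, -1.29 and -0.74 with saline (-1.19 ± 0.21, adjusted p = 0.00365). Ldhb, the lactate dehydrogenase subunit of oxidative tissues, was bright, with 4.56, 5.08 and 5.54 on 7 OVA arrays against 5.55, 5.87 and 6.24 on 6 saline arrays (-0.80 ± 0.14, adjusted p = 0.00522). Every measured OVA array lay below the saline arrays for Ldhb. The same was true of Ppp2r2b, a regulatory subunit of protein phosphatase 2A, at 0.05, 0.29 and 0.75 against 0.81, 1.04 and 1.96 (-0.83 ± 0.15, adjusted p = 0.00421). It also held for the uncharacterized 1700012B09Rik, which lay at the floor on 5 of 8 OVA arrays (-1.14 ± 0.22, adjusted p = 0.00525).

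Mmp11, a matrix metalloproteinase, had -1.0, -0.63 and 0.05 with OVA against -0.11, 0.14 and 0.61 with saline (-0.76 ± 0.14, adjusted p = 0.00367). Slc22a4, a carrier of organic cations, had -1.61, -0.99 and -0.77 against -0.79, -0.38 and -0.01 (-0.68 ± 0.13, adjusted p = 0.00499). Camkk1, a kinase that activates calmodulin-dependent kinases, had 1.39, 1.67 and 2.13 against 1.88, 2.13 and 2.48 (-0.49 ± 0.09, adjusted p = 0.00405). For these the OVA and saline ranges overlapped. Ccdc69 (-0.64 ± 0.12), Kazald1, a secreted Kazal domain protein (-0.48 ± 0.09), Eif3m, a subunit of translation initiation factor 3 (-0.35 ± 0.06), and Mapk1ip1 (-0.31 ± 0.06) had adjusted p from 0.00359 to 0.00502. Mapk1ip1 was even across slides, where its difference ran from -0.38 to -0.35. With median scaling Mapk1ip1, Eif3m, Kazald1, Camkk1, Mmp11 and Ldhb lost their call.

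Larger falls that needed pooling came with wide spread. Saa3, an acute phase apolipoprotein made by epithelium and macrophages, had -2.73, -1.72 and -0.78 with OVA against -1.40, 0.55 and 2.33 with saline (-2.30 ± 0.45, adjusted p = 0.00619), and its relative Saa1 fell as well (-1.44 ± 0.41, adjusted p = 0.0449). The antiprotease Slpi had 0.84, 1.75 and 2.62 against 2.20, 2.56 and 3.58 (-0.99 ± 0.27, adjusted p = 0.0383), but a dimmer probe gave -0.01. Slpi lost its call in 18 of 38 other settings. Cnn1, calponin of smooth muscle, had -3.32, -0.32 and 0.87 against 0.62, 1.56 and 2.41 (-2.31 ± 0.49, adjusted p = 0.0103). All 15 measured fibroblast and smooth muscle genes had differences below 0 (median -0.47), with only Cnn1 called. The summed signal of that list, in multiples of the 75th percentile, was 26.95 to 68.17 on OVA arrays and 52.44 to 92.35 on saline arrays, and these ranges overlap. Its part in the falls was not tested, since a covariate made from a list that itself fell with OVA carries part of the difference between the agents. With the mean of that list as a covariate, 26 of the 465 higher and 23 of the 359 lower genes were still called.

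Only 34 genes (0.183% of those tested) were called lower in each genotype and in the pooled fit, against 76 called higher in all 3 (0.409%). Of the 34, 27 have a symbol and 19 fell at least 2-fold, with differences from -2.98 to -0.78 (median size 1.16). For 27 of them the OVA arrays lay wholly below the saline arrays, as did 0.382% of all genes. On all 4 slides 33 fell, and 25.51% of all genes had 1 sign on all 4. The choice of these genes on the same arrays largely fixes both counts. The median difference was -1.17 in ko and -1.02 in wt, and 14 of the 34 fell further in ko. Ephx1 was the member nearest the threshold (adjusted p = 0.0495 in ko), and Myh7 (adjusted p = 0.0517 in ko) and Aldh1l1 (adjusted p = 0.0523 in wt) lay just outside. The smallest unadjusted p of an interaction among the 34 was 0.0163, for Bmp4. All 34 stayed below 0 in every other setting that was run. The number of genes that met all 3 thresholds moved more: it was 0 when each genotype was fitted on its own 8 arrays, 20 when ko_OVA 4 was left out, 21 when ko_OVA 2 or ko_saline 2 was, and 17 when ko_saline 1 was.

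The 2 largest shared falls were in secreted proteins. Scgb1c1, a secretoglobin of secretory cells, had -1.91, -1.02 and 0.78 on OVA arrays against 1.22, 2.03 and 3.57 on saline arrays, a difference of -2.98 ± 0.33 (adjusted p = 7.11e-05), which is 7.91-fold, with -2.96 in ko and -3.00 in wt. Sftpb, surfactant protein B, which alveolar cells and club cells make, had -2.15, -1.36 and -0.45 against 1.05, 1.35 and 2.21 (-2.72 ± 0.21, adjusted p = 3.96e-06). The groups stood apart for both. Sftpb was the 1 of 13 measured alveolar genes called, and the median of that list was -0.30. Bmp4, a signalling ligand of the TGF-beta family, had -1.21, -0.42 and -0.21 against 0.22, 0.70 and 1.28 (-1.26 ± 0.16, adjusted p = 0.000218), with -1.62 in ko and -0.91 in wt. Fgfbp1, a carrier that releases fibroblast growth factors, had 0.96, 1.41 and 1.71 against 1.92, 2.14 and 2.59 (-0.87 ± 0.12, adjusted p = 0.000413). Epdr1, an ependymin-related secreted protein (-0.97 ± 0.13), and Wfdc15b, a small protein with a WAP domain that lay at the floor on 7 of 8 OVA arrays (-0.78 ± 0.10), complete the group.

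Several shared falls were enzymes that act on foreign compounds or reactive oxygen, a grouping made after their values were seen, with Gstt1, Maob and Ephx1 on the xenobiotic list. Gstt1, a theta class glutathione transferase, had -2.85, -2.53 and -1.72 with OVA against -1.04, -0.77 and -0.26 with saline (-1.80 ± 0.18, adjusted p = 2.46e-05), with -1.76 in ko and -1.83 in wt. Gsta1, of the alpha class, had 0.92, 1.29 and 2.05 against 2.11, 2.70 and 3.02 (-1.24 ± 0.14, adjusted p = 8.64e-05), and Gsta2 had -0.75, -0.34 and 0.83 against 0.67, 1.30 and 1.68 (-1.40 ± 0.18, adjusted p = 0.000326). Gsta1 and Gsta2 are nearly identical copies, so their probes may share transcripts and the pair is uncertain as 2 separate genes. Aox3, an aldehyde oxidase, had 2.14, 2.63 and 2.97 against 3.19, 3.36 and 3.53 (-0.81 ± 0.10, adjusted p = 0.000222). Ephx1, microsomal epoxide hydrolase, had 2.63, 3.04 and 3.64 against 3.65, 3.84 and 4.31 (-0.85 ± 0.12, adjusted p = 0.00076), and its second probe gave -0.78. OVA and saline arrays did not overlap for Gstt1, Gsta1, Aox3 and Ephx1.

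Both monoamine oxidases, which break down serotonin, dopamine and related amines, were among the 34. Maoa had -1.47, -0.84 and -0.38 with OVA against -0.29, 0.20 and 0.57 with saline (-0.99 ± 0.12, adjusted p = 0.000164). Maob had -2.39, -2.0 and -0.98 against -1.27, -0.37 and 0.44 (-1.44 ± 0.18, adjusted p = 0.000232). Cat, catalase, had 1.82, 2.03 and 2.61 against 2.46, 2.85 and 3.52 (-0.80 ± 0.12, adjusted p = 0.00118). The 8 arrays of each agent were apart for Maoa and overlapped for Maob and Cat. In the whole xenobiotic list, 12 of 36 measured genes fell (33.33%, against 2.90% of all genes), 0 rose, and the median was -0.22. With median scaling 7 fell. Beside the shared members Gstt1, Maob and Ephx1, the smallest p belonged to Akr1c18, a steroid-reducing aldo-keto reductase, with -0.26, -0.11 and 1.23 against 1.38, 1.87 and 2.82 (-1.76 ± 0.24, adjusted p = 0.000457), and was called in wt too. Adh1, Fmo1, Gstm2, Gstt3 and Sult1a1 were likewise called in wt but not in ko, Gstt2 in ko but not in wt, and Aldh3a1 (-0.83 ± 0.21) and Cyp2j6 (-0.37 ± 0.10) only after pooling.

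Aass, Pparg, Hacd4 and Medag, genes of metabolism, were shared as well. Aass, which carries out the first steps of lysine breakdown in mitochondria, had -3.11, -2.11 and -1.38 with OVA against -0.82, -0.23 and 0.58 with saline (-1.96 ± 0.16, adjusted p = 3.97e-06), with no overlap and within-slide differences from -2.24 to -1.60. Of the 26 measured genes of amino acid breakdown, 4 fell (15.38%) and 0 rose, with a median of -0.20. Ivd, of leucine breakdown, fell by 0.52 ± 0.09 (adjusted p = 0.00427) and was called in wt too, and Cbs, of the homocysteine pathway, by 1.05 ± 0.22 (adjusted p = 0.00906) and only after pooling. Of 29 fatty acid oxidation genes, 3 fell (10.34%) and 0 rose, with a median of -0.20. Among them was Acsl1, which activates long chain fatty acids (-0.39 ± 0.11, adjusted p = 0.0423), called only after pooling. Acsl1 lost its call in 25 of 38 other settings, and Eci1, also among the 3, in 28. With median scaling 2 genes of amino acid breakdown and 1 of fatty acid oxidation fell. Pparg, a nuclear receptor for fatty acids, had -0.38, -0.03 and 0.44 with OVA against 0.57, 0.80 and 1.21 with saline (-0.82 ± 0.10, adjusted p = 0.000246). Hacd4, of very long chain fatty acid synthesis (-1.08 ± 0.11), and Medag, known from fat cell differentiation (-1.40 ± 0.15), lay wholly below their saline values too.

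Adcyap1r1, the receptor of the neuropeptide PACAP, had -3.32, -2.47 and -1.47 on 7 OVA arrays against -0.52, 0.26 and 1.31 on saline arrays (-2.58 ± 0.23, adjusted p = 1.92e-05). A dimmer probe of the gene gave -0.51. Rab6b, a small GTPase of the Golgi best known from neurons, lay at the floor on 7 of 8 OVA arrays, with a highest value of -2.39, against -2.11, -1.16 and -0.01 with saline (-1.93 ± 0.20, adjusted p = 5.13e-05), and a dimmer probe gave -0.04. For both genes the size of the fall therefore rests on 1 probe. Scnn1b, the beta subunit of the epithelial sodium channel that absorbs airway liquid, had -1.54, -0.57 and -0.25 against 0.35, 0.74 and 2.17 (-1.76 ± 0.24, adjusted p = 0.000472). The gamma subunit gene Scnn1g was called only after pooling, with -0.01, 0.73 and 1.42 against 1.07, 1.64 and 2.69 (-0.93 ± 0.21, adjusted p = 0.0173). The alpha subunit gene Scnn1a did not pass (-0.36 ± 0.16, adjusted p = 0.215). In the same list of 24 ion transport genes 4 rose, among them Slc26a4, the anion exchanger pendrin (4.51 ± 0.47, adjusted p = 4.99e-05), and Car2, a carbonic anhydrase (1.01 ± 0.17, adjusted p = 0.00275), and 3 fell.

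Tmie, a membrane protein known from sensory hair cells, had -1.61, -0.86 and -0.24 with OVA against 0.07, 0.33 and 0.95 with saline (-1.29 ± 0.15, adjusted p = 0.000136). Vamp5, a SNARE protein (-0.90 ± 0.11), Akap7, an anchor of protein kinase A (-0.88 ± 0.11), and Pdlim2, an adaptor with PDZ and LIM domains (-0.95 ± 0.11, on 6 OVA and 7 saline arrays), also lay wholly below. Krtap17-1, a keratin-associated protein of hair, had -1.75, -1.01 and -0.39 against 0.77, 1.13 and 1.86 (-2.29 ± 0.22, adjusted p = 2.09e-05), with -2.30 in ko and -2.29 in wt. Rptn, repetin of the cornified envelope, was at the floor on 5 of 8 OVA arrays (-1.77 ± 0.24, adjusted p = 0.000457). In the squamous list 0 of 9 measured genes were called (median -0.07, above 0 with normexp). The other 7 members are transcripts without a symbol here, with differences from -1.30 to -0.84.

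**Figure D5:**
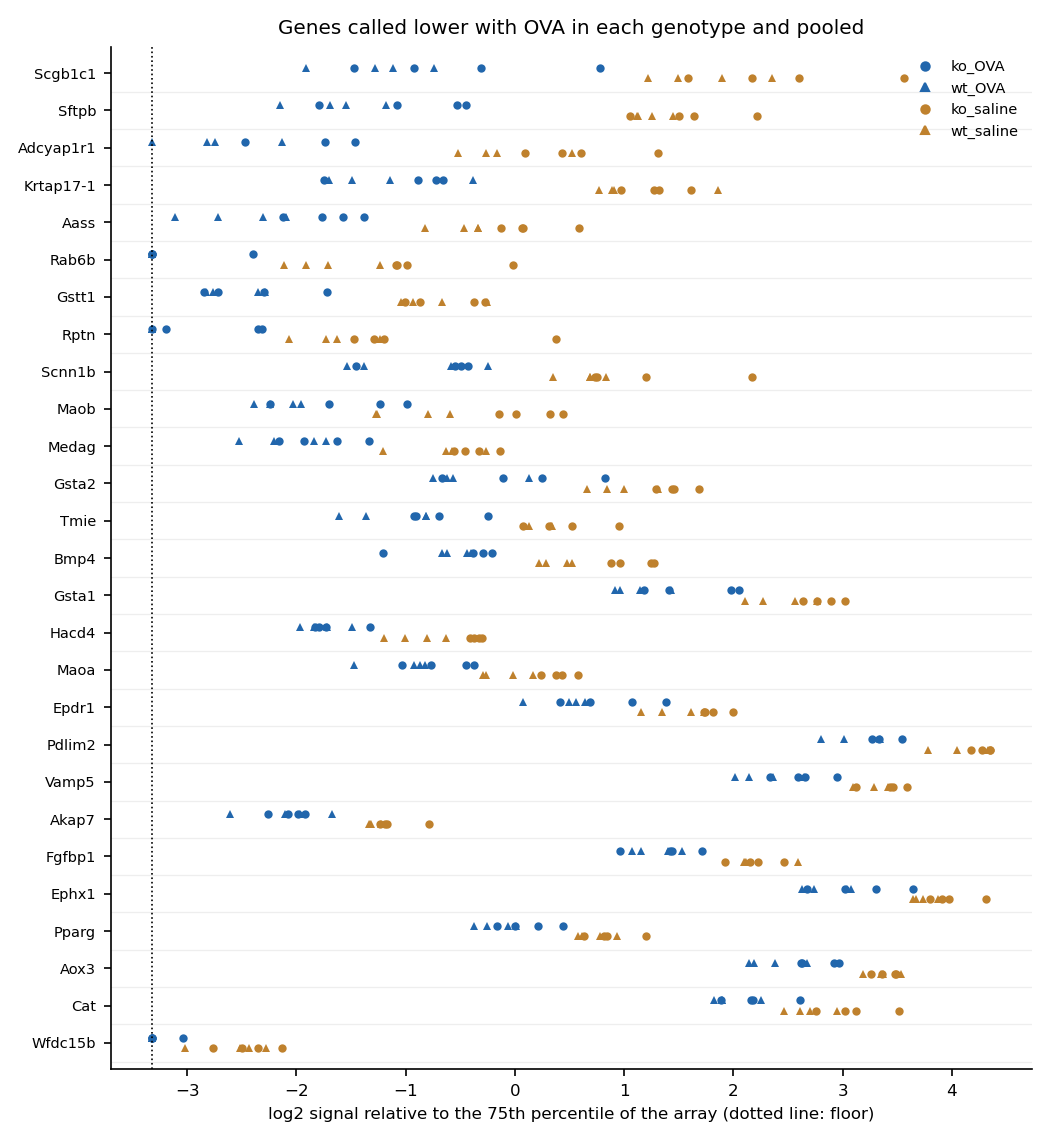
Level on each array (x axis, log2 of signal over the array's 75th percentile) for the 27 genes with a symbol called lower in both genotypes, ordered by the pooled difference. Blue points are OVA and brown points saline arrays, circles ko and triangles wt, and the dotted line is the floor of -3.32. Blue and brown points are apart for 23 genes and overlap for Maob, Gsta2, Epdr1 and Cat.

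Only 8 of the 34 stand on any of the lists, and the club cell list shows how far the fall reached. Of its 24 measured genes, 9 fell (37.5%) and 0 rose, with a median of -0.30, -0.14 in ko and -0.64 in wt. With median scaling 4 fell. Scgb1c1 and Aox3 were shared, Fmo2 (-0.80 ± 0.21, adjusted p = 0.0306) and Gsta4 (-0.45 ± 0.13, adjusted p = 0.0454) were called only after pooling, and the other 5 were called in wt but not in ko. Cckar, a cholecystokinin receptor, had 1.40, 2.06 and 2.33 with OVA against 2.44, 2.74 and 3.60 with saline (-0.85 ± 0.14, adjusted p = 0.00235). Cyp4b1, a bright cytochrome P450, had 6.08, 6.64 and 6.97 against 7.00, 7.37 and 7.53 on 7 saline arrays (-0.71 ± 0.12, adjusted p = 0.00297). Both lay wholly below. The most abundant club cell genes did not pass, with -0.15 ± 0.35 for Scgb1a1 (adjusted p = 0.858), -0.19 ± 0.41 for Cyp2f2 (adjusted p = 0.84) and 0.43 ± 0.39 for Scgb3a1 (adjusted p = 0.61). Their SE is large enough that a fall of the size of Aox3 would not have been called.

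Markers of other cells moved beside these groups. Of 17 measured mast cell genes, 8 rose and 0 fell (median 0.81, with 0.19 in ko and 1.58 in wt), and the list's summed signal was 57.68 to 152.3 on OVA arrays against 33 to 107.6 on saline arrays. Mcpt2, a mucosal mast cell protease, was called in both genotypes (1.80 ± 0.23, adjusted p = 0.00032, with 1.06 in ko and 2.53 in wt). It was the only member called in ko. Of the other members that rose, Fcer1a was called only after pooling, and the rest were called in wt but not in ko. With the mean of the mast cell list as a covariate, 78 genes were higher and 40 lower, and 23 of the 34 shared falls were still called in the pooled fit. Among 18 striated muscle genes 0 were called, and their median difference was -1.58, or -3.06 in ko and 0.01 in wt. Its summed signal spanned 3.271 to 498 with OVA and 4.341 to 678.6 with saline. The type 2 response list had 4 of 20 genes higher (Chil4, Alox15, Chil3 and Retnla, median 0.33), of which Retnla lost its call in 19 of 38 other settings and Chil3 in 13, and 1 was called with median scaling, and the eosinophil list had 0 of 5 called (median 0.08). Tuft and neuroendocrine cells had 3 of 14 lower, with Uchl1, a neuroendocrine ubiquitin hydrolase, at -1.53 ± 0.26 (adjusted p = 0.00237), Chgb at -0.89 and Dclk1 at -0.36 (median -0.31). A second Uchl1 probe gave -0.56, and Chgb and Dclk1 each lost their call in 16 of 38 other settings. The mast cell list itself rose with OVA, so as a covariate it carries part of the difference between the agents and cannot separate them. The part of the mast cell and muscle markers in the groups above was not tested.

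The remaining lists gave few calls, and the medians of macrophage, neutrophil, thyroid, TGF-beta, interferon, immediate early and Notch lists changed sign under at least 1 other scaling. The antimicrobial and acute phase list had 1 gene higher, Bpifb1, and 4 lower of 21 (median -0.12). Derl3 was the 1 of 9 higher in the B and plasma cell list (median -0.06), and it stands on the ER list too. Retnlg was the 1 of 9 higher in the neutrophil list (median 0.10) and Cry1 the 1 of 19 in the circadian clock list (median -0.07). Single genes were lower in the lists of macrophages and dendritic cells (Marco, of 21, median 0.05), endothelium (Kdr, of 9, median -0.06), adipocytes (Lpl, of 9, median 0.55), TGF-beta targets (Id1, of 20, median 0.01) and the Notch pathway (Notch3, of 16, median 0.09). Lpl and Id1 each lost their call in 23 of 38 other settings, Cry1 in 22, Notch3 in 12, Retnlg in 3, and Marco and Kdr each in 2. No gene was called by limma in the lists of basal cells (0 of 15, median -0.14), basophils (0 of 2, 0.36), T cells and innate lymphoid cells (0 of 13, 0.11), MHC class II presentation (0 of 9, 0.22), cartilage (0 of 5, 0.28), thyroid (0 of 7, -0.05), red blood cells (0 of 5, 1.17), interferon response (0 of 17, 0.05), cell cycle (0 of 21, -0.22), immediate early and heat shock genes (0 of 18, 0.07) and alarmins and epithelial chemokines (0 of 12, 0.17).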

How the data were processed

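RNA of 16 brushed epithelium samples was hybridized to one-colour Agilent arrays, 1 array a sample. The deposited files hold the processed signal intensity of each probe, extracted with Feature Extraction 10.5.1.1 per the file headers (10.1 per the submitters' processing notes), before normalization between arrays. The log2 values the authors deposited in the series table served as an alternative, with scale and centring of that table not given in the sources used here. Here each signal was divided by the 75th percentile of its array, raised to a common floor of -3.32 and put on the log2 scale. Control spots and outlier spots were left out, 25615 of 41174 probes were kept because 4 or more of the 16 arrays had them well above background, and the brightest probe stood for a gene. The pooled fit had genotype and agent as terms, and a fit of the 4 group means gave ko, wt and the interaction (limma 3.58.1 in R 4.3.3, Benjamini-Hochberg threshold 0.05). These scripts were tested on simulated data. The members and lists were chosen with earlier results of these data known. Named are Itgb6, the 12 genes with the smallest p in each direction among those called only after pooling, the shared falling genes, and up to 4 called genes a list by p. Further genes are named by their class or promoter element, with their values known. Promoters are from RefSeq (GRCm38.p6). Some genes that this rule selects are not reported here. Alternatives were other scalings, filters, probe rules, blocks, covariates and each array left out.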

Additional observations from a re-analysis of the deposited data

Results flagged for a closer look

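In 204 groups of up to 8 arrays (102 of the named genes, OVA and saline apart), 14 single arrays lay further from the rest of their agent than Dixon's 95% value allows. Chance flags about 1 in 20 groups, which would be 10.2 here. Of the 14, 5 lay on ko_saline 4, which was the highest saline array for Scnn1g (2.695, on the log2 scale as all values here), Scnn1b (2.168), Kdr (0.815), Rptn (0.378) and Akap7 (-0.783). The array wt_saline 4 was the highest saline array for Clca1 (6.192) and Itgb6 (-0.385), and wt_saline 2 for B3gnt3 (-1.755). The array wt_saline 1 was the lowest saline array for Medag (-1.204). Among OVA arrays, ko_OVA 4 was the lowest for Bmp4 (-1.21) and the highest for Wfdc15b (-3.037), ko_OVA 3 the highest for Rab6b (-2.394), ko_OVA 2 the lowest for Itgb6 (-1.712), and wt_OVA 1 stood apart for Cbs (-2.052). For Wfdc15b and Rab6b all other OVA arrays lay at the floor. The floor itself produces these flags, and the chance share does not apply to them.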

How the results depend on the processing

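Genes were classed anew under each setting, so a count does not say how many genes kept their class. Counts are given as genes higher, lower, higher only after pooling, lower only after pooling and shared falling, against 742, 539, 465, 359 and 34. They were 229, 181, 148, 125 and 15 with normexp background correction and 112, 236, 71, 182 and 8 with median scaling. With array position as a block they were 384, 191, 297, 153 and 13, with the mast cell list as a covariate 78, 40, 13, 9 and 0, with the fibroblast and smooth muscle list (added after seeing the data) 191, 118, 56, 36 and 12, and with a 2-fold minimum 107, 58, 15, 21 and 16. The first 4 were 430, 356, 253 and 224 with slide as a fixed block. Array weights gave 1270 higher, 855 lower, 75 shared falling and 1 interaction call among the pooled calls. The striated muscle list as a covariate gave 304 higher only after pooling and 19 shared falling. With each genotype on its own 8 arrays 0 were shared falling. The arrays wt_OVA 1 and wt_OVA 2 had the largest shares of probes well above background. Without them (added after seeing the data) 481 genes were higher, 20 shared falling and 1 pooled call was called for interaction (3 over all genes). The replicate block gave 652, 483, 437, 348 and 26, where same-numbered samples correlated from -0.21 to 0.3585 in their deviations and 4 of 8 pairs passed 0.1, so the numbers were not taken as pairs. Leaving out 1 array gave 486 to 847 higher, 320 to 558 lower, 281 to 554 higher only after pooling, 213 to 395 lower only after pooling, 17 to 40 shared falling and 0 to 2 interaction calls among the pooled calls. The lowest counts only after pooling were without ko_saline 2 (281) and ko_OVA 1 (293) for higher genes, and without ko_OVA 2 (213) and wt_OVA 3 (223) for lower ones. Interaction calls among the pooled calls came without wt_OVA 2 (2) and ko_OVA 4 (1). Over all genes the interaction called 3 without wt_OVA 2, and 1 each without ko_OVA 1, ko_OVA 4 or ko_saline 4, with array weights and with slide as a fixed block. The causes were not tested, and the mast cell and fibroblast lists used as covariates themselves moved with OVA. All 34 shared falls kept their sign in every setting run. Genes near the floor have only a compressed fall.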
